A study of Drosophila melanogaster with 12 samples.

Results

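The uncharacterized Drosophila melanogaster genes CG34040 (FBgn0054040), CG15784 (FBgn0029766), CG15263 (FBgn0028853), CG12224 (FBgn0037974) and FBgn0034711 were more abundant in flies kept on erythritol than in control flies. The gap was wide at both times for all but CG15263, which was 2.90-fold higher after 72 h and had a wide gap only after 96 h. These 5 genes, of 17707 in the count table, were chosen by the size of their increase on erythritol in these same libraries, so their levels in the 4 groups, and the differences between these, are given as a description with no test. All 5 were among the 13179 genes with enough counts to be tested. RNA of whole bodies of pooled flies, newly emerged when the feeding began, was sequenced after 72 h on medium with erythritol (T72h) or on ordinary medium (CK72h), and after 96 h on erythritol (T96h) or ordinary medium (CK96h), with 3 libraries in each of the 4 groups. The sources used here give neither the sex nor the strain of the flies, and the control medium differed only in lacking erythritol. By these times, the paper reports, many more erythritol-fed than control flies had died. It also reports that erythritol-fed flies moved less and laid no eggs. The part of these differences in the levels given here was not tested.

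Erythritol is a sugar alcohol that is used as a sweetener and kills many insects that feed on it. Pathways of fasting and of detoxification are well described in the fly. The foxo transcription factor switches on fasting genes when insulin signalling is low. The cnc transcription factor, which its inhibitor Keap1 holds back, drives detoxification enzymes. Whether erythritol acts through either factor was not tested here. Genes named only by a CG number, the identifier given to a predicted gene during annotation of the fly genome, have often not been studied one by one, and no function is assigned here to any of the 5 genes.

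Of the 5 genes, 4 were placed on the release 6 assembly of the fly genome (BDGP6, dm6), and all 4 are annotated as protein-coding. CG34040 lies on chromosome arm 2R, at positions 21832501 to 21833551 on the minus strand, with 2 exons and a predicted protein of 281 residues. CG15784 lies on chromosome X, at 5429571 to 5432526 on the plus strand, as a single exon of 2956 bp with 2 annotated transcripts and a predicted protein of 554 residues. CG15263 lies on arm 2L, at 15285000 to 15286047 on the plus strand, as a single exon of 1048 bp that encodes 292 residues. CG12224 lies on arm 3R, at 11980704 to 11982062 on the minus strand, with 3 exons. The 4 genes thus sit on different arms, and no annotated gene overlaps any of them. FBgn0034711 has no entry in the annotation used here, so it is described by its counts alone.

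Counts are given as CPM, counts scaled for library size and composition but not for gene length. The 12 libraries held 19855575 to 23327826 counts. Transcripts of the mitochondrial genome took 16.5% of the counts of replicate 3 of T72h, against 7.29% to 11.9% in the other 11 libraries. Markers of 10 tissues were present, among them eggshell, testis and male accessory gland genes, which belong to females and to males. In whole flies, fewer cells of a type and less RNA per cell cannot be told apart.

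CG34040 had the widest gap of the 5 between the diets. It was at 194.1, 201.3 and 197.0 CPM in the T72h libraries, against 2.05, 2.39 and 1.91 CPM in the CK72h libraries. At 96 h it was at 197.2, 194.7 and 193.4 CPM in T96h, against 0.995, 0.760 and 0.908 CPM in CK96h. The diets did not overlap at either time, and the erythritol libraries held almost the same level at both times. The control values rest on 43 to 55 counts per library in CK72h and 15 to 21 in CK96h. CG34040 was 93.3-fold higher in T72h than in CK72h (95% counting interval 79.3 to 110.5) and 219.5-fold higher in T96h than in CK96h (168.9 to 290.7). These intervals cover counting error only. On the log2 scale this was a change of 6.54 at 72 h and 7.77 at 96 h, the second largest of the 13179 genes at each time.

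CG15784 and FBgn0034711 were the most abundant of the 5 genes by CPM. CG15784 was at 1193, 1201 and 1144 CPM in T72h, against 38.15, 38.77 and 38.72 CPM in CK72h, and at 1369, 1372 and 1361 CPM in T96h, against 54.5, 51.4 and 50.1 CPM in CK96h. Every erythritol library stood at least 25.0-fold above every control library of its time. The ratio of the group means was 30.6 at 72 h (counting interval 29.45 to 31.8) and 26.3 at 96 h (25.4 to 27.3), log2 fold changes of 4.94 and 4.72. FBgn0034711 was at 1606, 1567 and 1527 CPM in T72h, against 42.1, 46.5 and 46.0 CPM in CK72h. It was at 1660, 1671 and 1641 CPM in T96h, against 57.1, 54.3 and 51.7 CPM in CK96h. Here too the groups stood far apart, by 35.0-fold at 72 h (33.7 to 36.2) and 30.55-fold at 96 h (29.5 to 31.6), log2 fold changes of 5.13 and 4.93.

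CG12224 went with these genes in fold but not in level. It was at 31.4, 31.0 and 30.5 CPM in T72h, against 1.25, 0.738 and 0.756 CPM in CK72h. At 96 h it was at 31.8, 34.1 and 32.0 CPM in T96h, against 0.895, 1.11 and 0.821 CPM in CK96h. No control library had more than 30 counts of it, so its 33.6-fold increase at 72 h and 34.8-fold increase at 96 h carried wide counting intervals (26.2 to 43.8 and 26.9 to 45.9). The log2 fold changes were 5.06 and 5.11.

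CG15263 differed from the other 4 genes in its 72 h controls. It was at 45.0, 42.1 and 45.5 CPM in T72h, against 15.3, 12.9 and 17.5 CPM in CK72h. At 96 h it was at 45.0, 40.4 and 41.9 CPM in T96h, against 0.646, 0.962 and 0.865 CPM in CK96h, where the libraries held 13 to 20 counts. The erythritol level was thus nearly the same at both times, and the control level was not. CG15263 was 2.90-fold higher in T72h than in CK72h (2.70 to 3.12), and 51.5-fold higher in T96h than in CK96h (39.1 to 69.1). Its log2 fold change of 1.54 at 72 h lay just above the threshold of 1.5 used to call a gene and ranked 497 of 13179, whereas 5.67 at 96 h ranked 4. The value at 72 h was under that threshold in 3 alternatives, at 1.28 with libraries scaled by their totals alone, 1.41 with upper-quartile factors and 1.43 without replicate 2 of CK72h.

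**Figure D1:**
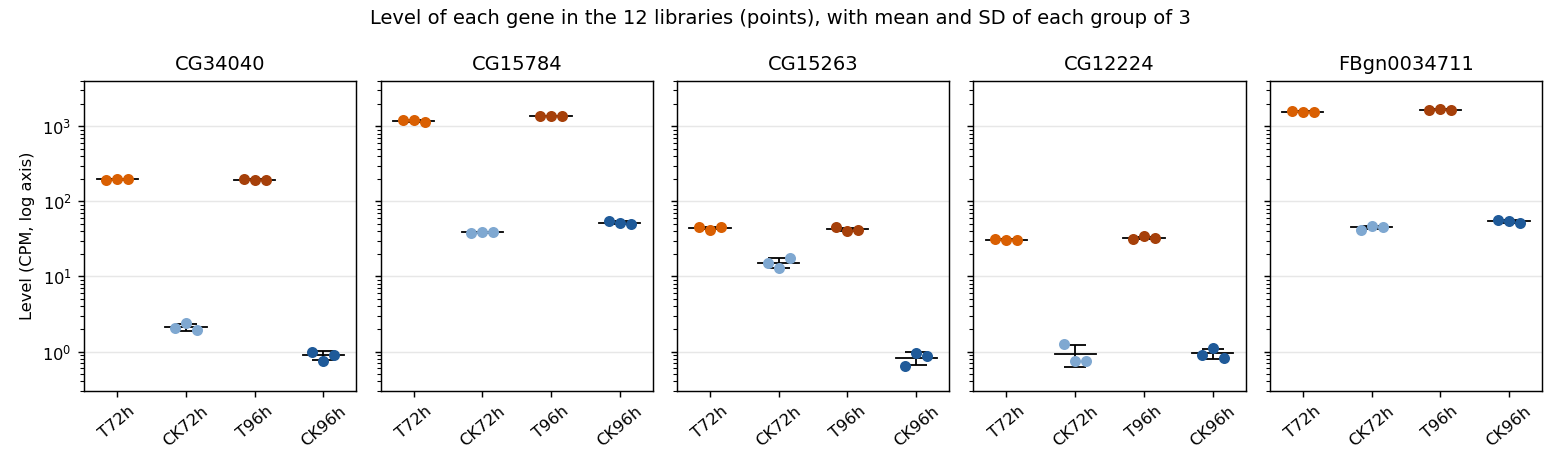
Level of the 5 genes in each library, in CPM on a log axis, with the erythritol groups left of the control groups of the same time (points, libraries; bars, mean ± SD, n = 3). In every panel the erythritol points lie above all control points of that time, which follows from how the genes were chosen. In the CG15263 panel the CK72h points, at 12.9 to 17.5 CPM, stand apart from the CK96h points, at 0.646 to 0.962 CPM.

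The calls across all genes give the frame for these values. Calls required an adjusted p below 0.05 (edgeR quasi-likelihood test, Benjamini-Hochberg) and a log2 fold change of 1.5 or more in size. At 72 h, 3.98% of the tested genes were called higher on erythritol and 12.9% were called in either direction. At 96 h the shares were 3.97% and 11.1%. The split of the calls moved with the scaling. It was 524 higher and 1176 lower at 72 h, and 342 and 1592 with library totals. At 96 h it was 523 higher and 942 lower, and 847 and 899 without replicate 3 of T72h. All 5 genes were higher at both times by the fold threshold, which follows from how they were chosen. So does the lack of overlap between the diets, and its share over all genes was not counted. Genes with small changes showed it too, as UK114, a neighbour of CG15263, did at 96 h with a log2 fold change of 0.085. Together they took 0.263% to 0.294% of the counts of the T72h libraries, against 0.0107% to 0.0117% in CK72h, and 0.327% to 0.338% in T96h, against 0.0103% to 0.0110% in CK96h.

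Levels of different genes can be compared only per length, as TPM, a unit that corrects counts for transcript length, for the 4 genes with a known length. In T72h, CG15784 averaged 635.7 ± 49.2 TPM and CG34040 320.7 ± 16.5 TPM, followed by CG15263 at 67.2 ± 4.17 and CG12224 at 43.0 ± 2.91 TPM (SD, n = 3). The order was the same in T96h, at 789.4 ± 19.7, 339.8 ± 11.0, 69.1 ± 5.21 and 48.5 ± 1.83 TPM. Among 17252 genes with a length, CG15784 thus held a median rank of 216 in T72h and 173 in T96h, against 5374 in CK72h and 4499 in CK96h. In CK72h, CG15263 (25.75 ± 3.96 TPM) and CG15784 (23.1 ± 0.668 TPM) did not differ beyond their spread, and CG34040 (3.82 ± 0.467 TPM) lay above CG12224 (1.41 ± 0.419 TPM). In CK96h, CG15784 averaged 26.7 ± 1.24 TPM, while CG34040 (1.38 ± 0.212), CG12224 (1.24 ± 0.158) and CG15263 (1.19 ± 0.223) overlapped in their libraries.

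The replicates of the 5 genes lay close together where counts were high. The coefficient of variation was between 0.405% and 5.51% in the erythritol groups. In the controls it reached 32.0% for CG12224 in CK72h and 19.6% for CG15263 in CK96h, where fewer than 31 counts per library were available. Replicate 3 of T72h was the lowest of its group for CG15784, CG12224 and FBgn0034711. Without that library the log2 fold change of CG15784 was 5.01 at 72 h and 4.83 at 96 h, and that of FBgn0034711 was 5.04 at 96 h. The study describes the replicates as biological, and p-values given here for other genes measure the spread between these libraries only.

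**Figure D2:**
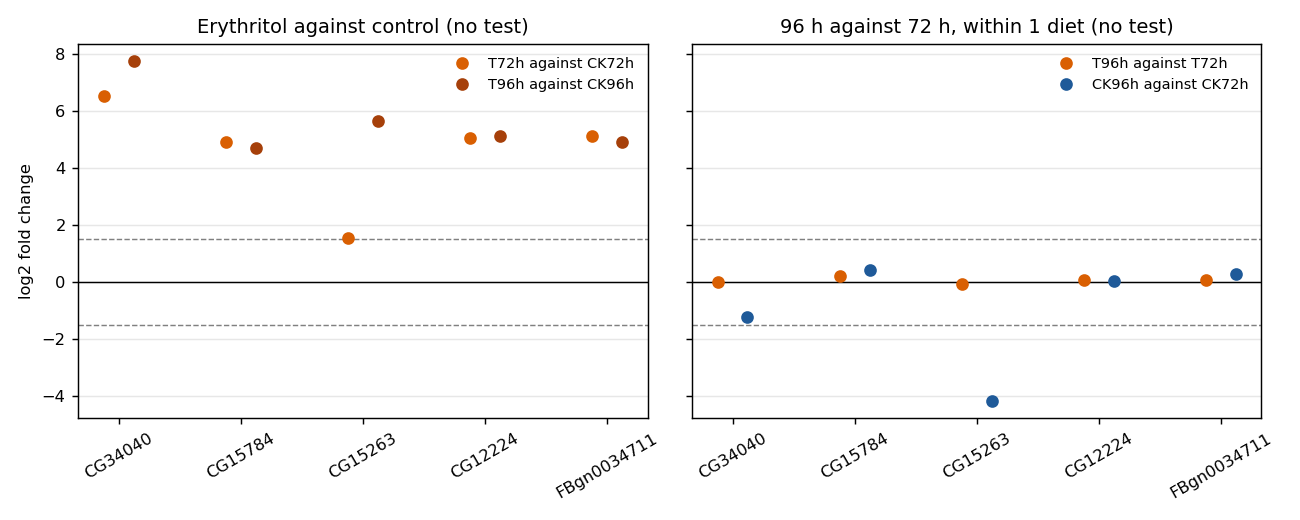
Log2 fold change of each gene on erythritol against control at 72 h and at 96 h, from the fit of all 12 libraries, and between 96 h and 72 h within a diet, with the fold threshold of 1.5 as dashed lines. On erythritol against control, CG15784, CG12224 and FBgn0034711 have nearly equal values at both times, between 4.72 and 5.13, while CG34040 (6.54 and 7.77) and CG15263 (1.54 and 5.67) have a larger value at 96 h.

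The fold of CG15263 on the log2 scale was larger by 4.14 at 96 h than at 72 h, and that of CG34040 by 1.23. For CG12224 the difference between the times was 0.05, for FBgn0034711 it was -0.20 and for CG15784 it was -0.22. These differences are built from the contrasts that chose the genes and were not tested. The changes between 96 h and 72 h within a diet use the same group levels that the choice rested on, so they are also given for the 5 genes with no p-value. For the same reason, counts of calls among the 5 over time are a description only, set beside the share of all genes. With 3 libraries against 3, the smallest p that an exact permutation of labels allows for 1 gene is 0.1.

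Within erythritol-fed flies, the 5 genes had much the same level at 96 h and at 72 h. The log2 changes were -0.02 for CG34040, -0.06 for CG15263, 0.07 for CG12224, 0.08 for FBgn0034711 and 0.21 for CG15784, so 0 of the 5 met the criteria of a call, which 1.40% of all tested genes did. With no fold threshold 53.0% of all genes passed. CG15784 had the widest change, at 1368 ± 5.54 CPM in T96h and 1179 ± 31.0 CPM in T72h, and its T96h libraries all lay above its T72h libraries. For CG34040 the ratio of T96h to T72h was 0.988, with a counting interval of 0.963 to 1.01. The sign of such small values depended on the scaling, as CG34040 had 0.11 with library totals.

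Within control flies, CG15263 stood apart from the other 4 genes. It was at 0.824 ± 0.162 CPM in CK96h, against 15.25 ± 2.29 CPM in CK72h, which is -4.20 on the log2 scale. It was 18.5-fold lower in CK96h, with a counting interval of 14.0 to 24.9, and ranked 13178 of 13179 genes from the largest increase to the largest decrease. All 3 CK96h libraries lay below all 3 CK72h libraries. It was the 1 gene of the 5 to meet the criteria of a call in this contrast, which 5.62% of all genes did and which 82.3% did with no fold threshold. The low CK96h level is also what makes the increase of CG15263 on erythritol large at 96 h, so this value is not independent of the choice of the gene.

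The other control changes with time were smaller. CG34040 was lower in CK96h by 2.38-fold (counting interval 1.74 to 3.30, on 56 counts in CK96h and 147 in CK72h), or -1.25 on the log2 scale. CG15784 was higher in CK96h by 0.43 on the log2 scale, at 52.0 ± 2.26 CPM in CK96h and 38.55 ± 0.347 CPM in CK72h, and FBgn0034711 by 0.28. CG12224 was at 0.943 ± 0.152 CPM in CK96h and 0.916 ± 0.293 CPM in CK72h, a ratio of 1.02 with a counting interval of 0.701 to 1.47, so a difference was not detectable at this depth. The scaling bears on the small values, since the median gene shifted by 0.12 in this contrast with TMM factors, by -0.045 with factors from the upper quartile and by -0.07 under scaling by library totals. FBgn0034711 shifted by 0.11 with upper-quartile factors and by 0.09 with library totals. All genes called in control flies over time were split into 205 higher and 536 lower, and into 157 and 1262 with upper-quartile factors.

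**Figure D3:**
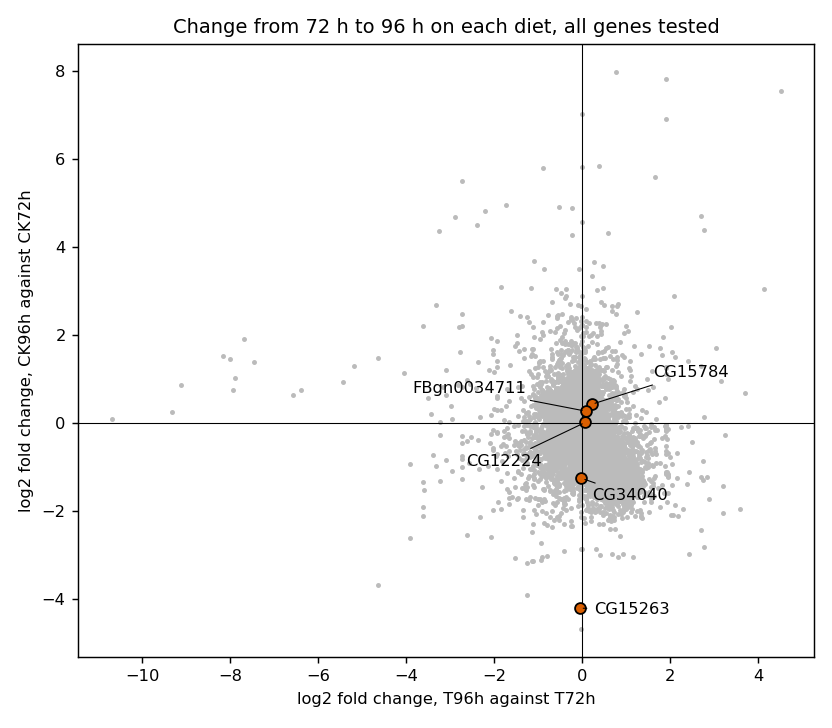
Change between 96 h and 72 h, as a log2 fold change, in erythritol-fed flies and in control flies for the 5 genes, over all tested genes in grey. The 5 genes lie between -0.06 and 0.21 in erythritol-fed flies, while in control flies CG15263 (-4.20) and CG34040 (-1.25) lie far below the other 3, which lie between 0.02 and 0.43.

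Between CK72h and CK96h, where CG15263 was lower at the later time, sums of tissue markers moved in both directions. The summed level of 6 testis markers was 644 to 669 CPM in CK96h, against 1578 to 1595 CPM in CK72h. That of 5 male accessory gland markers was 552 to 571 CPM in CK96h, against 1477 to 1497 CPM in CK72h. The photoreceptor sum was also lower, at 2390 to 2483 CPM against 2951 to 3029 CPM. Other sums were higher in CK96h. The eggshell sum was 7217 to 8202 CPM in CK96h, against 3804 to 3924 CPM in CK72h. The fat body sum was 2219 to 2386 CPM against 867 to 905 CPM, and the female germline sum 639 to 661 CPM against 428 to 444 CPM. The Malpighian tubule sum was higher too, and the midgut sums overlapped. In erythritol-fed flies the testis sum was 1657 to 1698 CPM in T96h and 801 to 850 CPM in T72h, whereas CG15263 was at 40.4 to 45.0 CPM in T96h and 42.1 to 45.5 CPM in T72h. Of the testis markers, 1 was at 0 in CK96h and none in the other 3 groups. That marker, Mst84Da, had only 5 counts over all libraries and was not tested, so its 0 carries little weight. No accessory gland marker was at 0 in any group. Hemocyte markers, 4 genes of blood cells, summed to 305 to 312 CPM in T72h and 364 to 373 CPM in T96h, against 97.2 to 100.3 CPM in CK72h and 272 to 278 CPM in CK96h. The sum of 5 flight muscle markers was also higher on erythritol at both times, at 3128 to 3196 CPM in T72h against 2184 to 2205 CPM in CK72h, and at 1714 to 1723 CPM in T96h against 1259 to 1297 CPM in CK96h. Of these 5, Act88F was called higher at both times and TpnC4 at 72 h, fln was called lower at 96 h, and Mhc had log2 fold changes of 0.07 and 0.05. Sums of the other 7 lists were lower on erythritol at both times, and that of the testis was lower at 72 h and higher at 96 h. Single members departed from their sums, as grk of the female germline had 0.80 and 0.23, and Rh3, Rh4 and trp of the photoreceptors had 0.10 to 0.21 at 96 h. The Malpighian tubule list had medians of -0.20 and -0.16. In it, Uro had -0.86 and -1.63 and was called lower at 96 h, while CapaR and ZnT35C lay between -0.20 and 0.08. No list was higher on erythritol by as many fold as CG34040, CG15784, CG12224 or FBgn0034711, which were chosen for their large increase. The part of these tissues in the levels of the 5 genes was not tested.

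The genes that lie beside the 5 were examined next, as they were taken by position and not by their values. The 5 nearest annotated genes on each side of the 4 placed genes made 40 neighbours, of which 29 had enough counts to be tested. At 72 h, 6 neighbours were called higher and 1 lower on erythritol, so 20.7% were higher and 24.1% were called, beside 3.98% and 12.9% of all genes. Their median log2 fold change was -0.01, and -0.05 over all genes. At 96 h, 7 were called higher and 1 lower, 24.1% and 27.6% of those tested, with a median of 0.66, and -0.02 over all genes.

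The called neighbours were unevenly spread. CG34040 had 3 of 6 tested neighbours called at each time, CG12224 had 3 of 8 at 72 h and 2 of 8 at 96 h, CG15784 had 1 of 7 at each time, and CG15263 had 0 of 8 at 72 h and 2 of 8 at 96 h.

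On the same strand as CG34040, CG4363 lies 678 bp and CG4377 lies 1896 bp away. CG4363 averaged 854 ± 61.9 CPM in T72h and 140 ± 6.01 CPM in CK72h, or 2.61 on the log2 scale (SE 0.0478, adjusted p = 1.4e-24). At 96 h it averaged 809 ± 10.6 CPM in T96h and 80.5 ± 1.45 CPM in CK96h, or 3.33 on the log2 scale (adjusted p = 2.52e-26). CG4377 averaged 182 ± 3.29 CPM in T72h and 30.6 ± 0.387 CPM in CK72h, and 200.5 ± 6.36 CPM in T96h and 29.4 ± 3.16 CPM in CK96h, log2 fold changes of 2.57 and 2.76 (adjusted p = 5e-24 and 1.7e-24). Both neighbours were thus higher on erythritol at both times, by less than CG34040, and their levels in control flies were far above that of CG34040. On the other side, CG13492, at 1091 bp, had log2 fold changes of 1.21 and 0.85, below the fold threshold. Further along, tpr, with only 196 counts over all libraries, was lower on erythritol, where its level was near 0. It was at 0.0984 CPM in T72h against 2.12 CPM in CK72h (log2 fold change -4.34, adjusted p = 4.3e-10). At 96 h its log2 fold change was -4.11 (adjusted p = 2.24e-06).

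Beside CG12224, CG18547 lies 313 bp away on the same strand. It averaged 131 ± 4.86 CPM in T72h and 20.65 ± 0.542 CPM in CK72h, and 129 ± 0.403 CPM in T96h and 24.1 ± 0.930 CPM in CK96h. The log2 fold changes were 2.67 (adjusted p = 2.39e-25) and 2.42 (adjusted p = 1.7e-24). Next to it, lncRNA:CR44135, a long non-coding RNA with 225 counts over all libraries, was higher by 1.84 at 72 h (adjusted p = 2.78e-04) and by 2.19 at 96 h (adjusted p = 4.4e-05). CG10005, at 3506 bp, was called at 72 h (1.52, adjusted p = 2.4e-05) and had 1.20 at 96 h, under the threshold. On the other side of CG12224, CG3397 had only 3 counts in all libraries and was not tested.

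The single called neighbour of CG15784 was lncRNA:CR45517, which ends 314 bp before CG15784 begins, on the same strand. It averaged 5.63 ± 1.54 CPM in T72h and 1.12 ± 0.351 CPM in CK72h, which is 2.32 on the log2 scale (adjusted p = 9.35e-09). At 96 h it averaged 4.95 ± 0.545 CPM in T96h and 0.815 ± 0.458 CPM in CK96h, or 2.55 on the log2 scale (adjusted p = 8.99e-09). Its level was thus a small fraction of that of CG15784 in every group. The sources used here name no tool that assigned reads to genes, and whether reads of CG15784 reached this count was not tested. SPR, the receptor for the sex peptide that males transfer at mating, lies on the other side of CG15784 and had log2 fold changes of -0.50 and -1.28.

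None of the 8 tested neighbours of CG15263 was called at 72 h, and UK114 was the 1 with a log2 fold change above 0 (1.17), under the threshold. CG15260 and ms(2)35Ci, a gene named for male sterility, were called higher at 96 h only, by 1.51 (adjusted p = 5.69e-15) and by 1.53 (adjusted p = 5.05e-13) on the log2 scale. At 72 h both had negative values, -0.84 (adjusted p = 3.46e-10) and -0.85 (adjusted p = 8.78e-09). CG15260 averaged 24.3 ± 1.12 CPM in T96h and 8.51 ± 0.335 CPM in CK96h, and 11.6 ± 0.823 CPM in T72h and 20.7 ± 1.46 CPM in CK72h. The summed testis markers, given above, took the same order over the 4 groups as these neighbours, with T96h and CK72h high and T72h and CK96h low. CG15263 had another order, with both erythritol groups high. The part of the testis in the values of these neighbours was not tested.

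**Figure D4:**
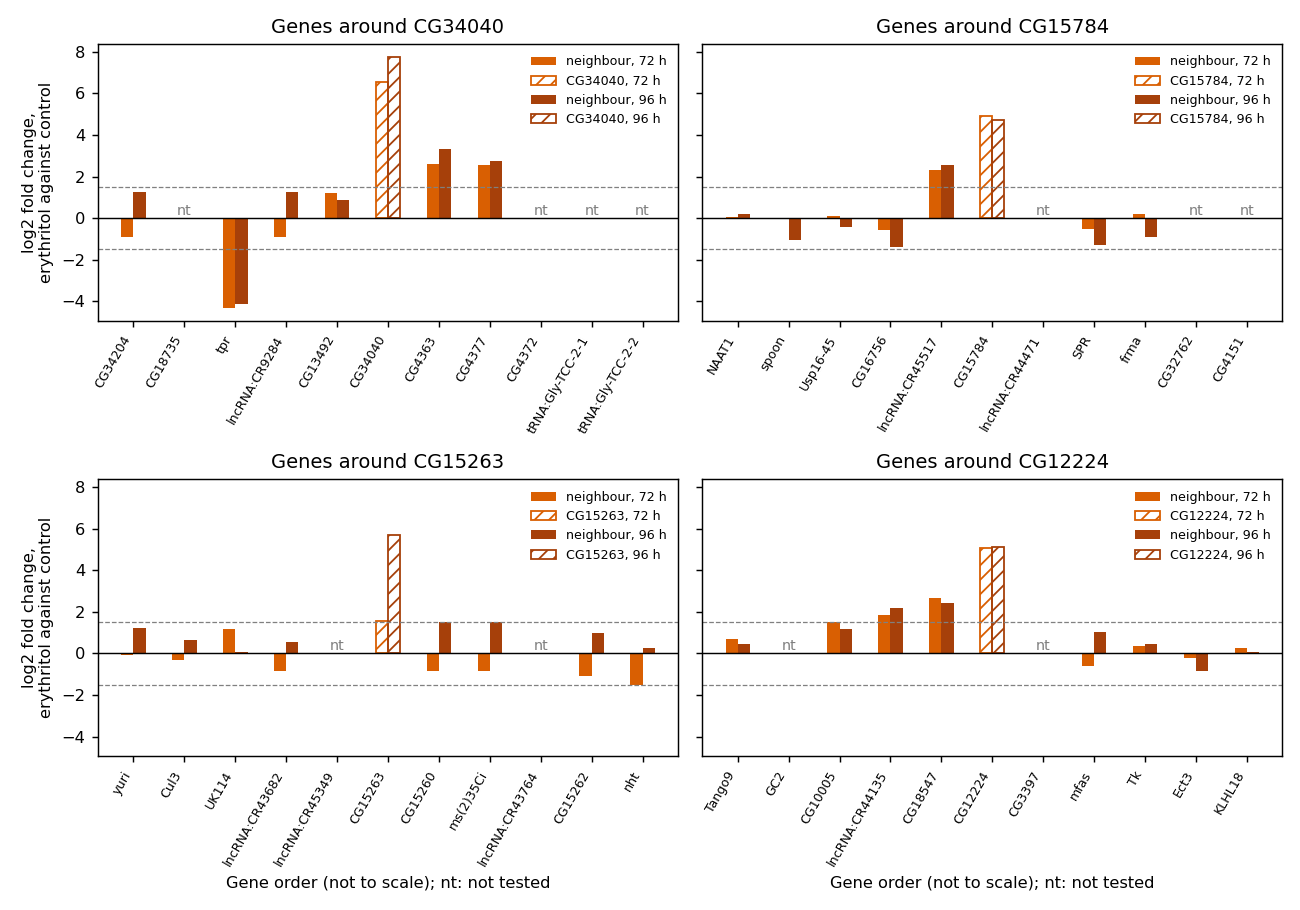
Log2 fold change on erythritol against control of the 5 nearest annotated genes on each side of the 4 placed genes, in order along the chromosome, at 72 h and at 96 h (nt, not tested for low counts). The central gene of each panel, chosen for its increase, exceeds all of its tested neighbours at 96 h, which follows from that choice. CG4363 (2.61 and 3.33), CG4377 (2.57 and 2.76) and CG18547 (2.67 and 2.42) are the coding genes beside CG34040 and CG12224 that were called higher at both times.

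For each of the 5 genes, the 3 genes whose log2 CPM followed it most closely over the 12 libraries were taken by Pearson's r among 10071 genes whose log2 CPM averaged 2 or more. These values describe 12 libraries that fall into separate groups, so a gene that differs between the diets reaches a high r from the group levels alone. CG15784 and FBgn0034711 were each among the other's closest (r = 0.99945), and CG3609 stood beside both (r = 0.99935 with CG15784 and 0.99966 with FBgn0034711). GstE1, a glutathione S-transferase, which joins glutathione to reactive compounds, was the third for CG15784 (r = 0.99934). It averaged 369 ± 8.55 CPM in T72h and 33.5 ± 0.965 CPM in CK72h, and 459 ± 3.31 CPM in T96h and 42.2 ± 1.14 CPM in CK96h. The third for FBgn0034711 was CG18547, the neighbour of CG12224 (r = 0.99927). CG15784 and FBgn0034711 were not in a fixed ratio, however. FBgn0034711 had 1.30 to 1.35 counts for each count of CG15784 in T72h, 1.10 to 1.20 in CK72h, 1.21 to 1.22 in T96h and 1.03 to 1.06 in CK96h, so the ratio was higher on erythritol at each time.

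CG34040 was followed most closely by CG13309 (r = 0.99942), CG9674 (r = 0.99873) and Act88F, the actin of the indirect flight muscle (r = 0.99802). Act88F was at 231 ± 13.1 CPM in T72h and 47.1 ± 1.27 CPM in CK72h, and at 246 ± 3.79 CPM in T96h and 39.4 ± 0.878 CPM in CK96h. It is also 1 of the 5 flight muscle markers summed above. CG12224 was followed by Serinc (r = 0.99747), CG12766 (r = 0.99699) and CG32195 (r = 0.99667). Of these, CG12766 had a fold like that of CG12224, with log2 fold changes of 5.61 at 72 h and 5.24 at 96 h, while Serinc had 0.99 and 1.05.

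The pattern of CG15263 was the least shared. A Pearson's r of at least 0.99 was reached by 2 genes for CG15263, against 69 for CG34040, 146 for CG15784, 74 for CG12224 and 150 for FBgn0034711. The 2 genes were Nplp1, which encodes a precursor of neuropeptides (r = 0.99565), and CG12493 (r = 0.99336), and CLIP-190, a microtubule-binding protein gene, came next (r = 0.98323). Their folds were much smaller. Nplp1 averaged 68.4 ± 1.79 CPM in T72h and 57.5 ± 1.49 CPM in CK72h, and 70.9 ± 1.48 CPM in T96h and 31.8 ± 0.905 CPM in CK96h, with log2 fold changes of 0.25 and 1.16. For CG12493 the values were 0.34 and 1.51.

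A pair of short lists of target transcripts of the foxo and cnc factors named above was counted. Of 5 targets of foxo, InR was not matched in the table, and 2 of the 4 tested were called higher at 72 h and 0 at 96 h, where all 4 had an absolute log2 fold change under 1.5 and passed the adjusted p alone, with Ilp6 lower and the others higher. The list median was 1.78 at 72 h and 0.70 at 96 h. Thor, which encodes 4E-BP, a brake on translation, averaged 820 ± 14.8 CPM in T72h and 163 ± 0.680 CPM in CK72h, higher by 2.33 on the log2 scale (adjusted p = 3.24e-25), and had 1.17 at 96 h. The triglyceride lipase gene bmm had 2.10 at 72 h (adjusted p = 8.42e-24) and 1.30 at 96 h. Of 7 targets of cnc, 1 was called higher at 72 h and 2 at 96 h, with medians of 1.15 and 1.06. Over all tested genes, 3.98% were called higher at 72 h and 3.97% at 96 h. By adjusted p alone, all 7 targets of cnc were higher at 96 h, and all but Keap1 (adjusted p = 0.119) at 72 h. With no fold threshold, 10477 of all 13179 genes passed at 96 h and 10453 at 72 h, in either direction. GstD2, a glutathione S-transferase gene, was higher by 3.12 at 72 h (adjusted p = 5.68e-18) and by 4.49 at 96 h (adjusted p = 5.12e-22), and the cytochrome P450 gene Cyp6a8 had 1.48 and 1.76. At 96 h the log2 fold changes of the 5 uncharacterized genes, between 4.72 and 7.77, all lay above those of both lists. This follows from the choice of the 5 by their increase, and says nothing about either factor. At 72 h the value of CG15263 lay within those of the lists.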

How the data were processed

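RNA of whole flies was extracted from pools of flies, and poly(A) RNA was enriched with oligo(dT) beads before sequencing. The authors aligned the reads with HISAT2 to a FlyBase release 6 genome, and CASAVA 1.8 is named in the submitters' processing notes. The deposited values are raw counts per gene, not scaled for depth or length. How reads were counted, and with which strand setting, is not given in the sources used here. The 12 libraries held 19855575 to 23327826 counts.

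Counts were fitted with edgeR 4.0.16 in R 4.3.3 (TMM factors, filter on the groups, quasi-likelihood, all 4 groups in 1 fit without a replicate block), which left 13179 of 17707 genes, with Benjamini-Hochberg adjustment over these genes. The common dispersion was 0.00165, a coefficient of variation of 4.06%. DESeq2 1.42.0 was an alternative. Comparisons of replicates showed no copied library. CPM used TMM-scaled sizes, TPM used exon lengths from an annotation with entries for 17252 genes, and log2 CPM for likeness used a prior count of 2. Counting intervals are exact at the 95% level.

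The 5 genes and the lists were chosen with earlier results of these data known. Tests of the 5 genes over time were fitted as planned. Only their counts, with and without the fold threshold, are given, since they share group levels with the choice. Named genes are the 5, their called neighbours, the 3 genes closest in pattern to each, and the foxo and cnc targets. A few others beside them (CG13492, CG3397, SPR, UK114) and single tissue markers were named after their values were seen. Alternatives were other scalings, no filter, DESeq2, only the groups compared, a replicate block, leaving out each library, no fold threshold and, added after seeing the data, leaving out mitochondrial genes. Searches for related proteins and promoter motifs were planned and were not run, because no sequences were used here.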

Additional observations from a re-analysis of the deposited data

How the results depend on the processing

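Over 20 log2 fold changes of the 5 genes (4 contrasts each), 400 alternative values were tried, and 389 were counted as the same. For erythritol against control, this meant a move of less than the spread between replicates, and 11 values moved further. For the changes over time, it meant only that the call stayed as it was, as all did, so moves there were not set against the spread. No called value changed sign. With no fold threshold, 10453 genes passed between T72h and CK72h, 10477 between T96h and CK96h, 6986 between T96h and T72h and 10851 between CK96h and CK72h. Of the 5 genes 4 then passed in control flies over time and 1 in erythritol-fed flies, beside 82.3% and 53.0% of all tested genes. These counts of the 5 share group levels with their choice and are a description. Of the 29 tested neighbours 26 passed at 72 h and 25 at 96 h.

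Between CK96h and CK72h, 741 genes were called (205 higher, 536 lower), against 1419 when scaled by the upper quartile (157 and 1262), 1545 when scaled by library totals (151 and 1394) and 1161 without replicate 3 of T72h (197 and 964), where the median gene had 0.02 in place of 0.12. Leaving out each library in turn gave 775 to 1161 genes in that contrast, 1733 to 1824 between T72h and CK72h, 1505 to 1746 between T96h and CK96h and 196 to 224 between T96h and T72h, with 1 and 0 of the 5 genes called over time each time.

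Correlations between libraries of 1 replicate number were -0.1 to 0.156, against -0.109 to 0.102 between libraries of different numbers. Between T96h and T72h alone, those of 1 number (0.07 to 0.156) all lay above the others (-0.106 to 0.036). With a replicate block, 1701 genes were called between T72h and CK72h and 752 between CK96h and CK72h, 1 and 0 of the 5 genes were called over time, and 8 neighbours were called at each time, with nht added at 72 h. Scaling by the upper quartile gave 5 neighbours higher and 2 lower at 72 h, against 6 and 1. Without mitochondrial genes no count changed by over 1.5 times. Depth limits CG34040, CG15263 and CG12224 in control flies, where 13 to 55 counts per library stood behind most values.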

Other observations

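Genes known only by a CG number made up 5045 of the tested genes. Of these, 221 (4.38%) were called higher on erythritol at 72 h and 240 (4.76%) at 96 h, and 108 were called at both times. These counts include the CG-numbered genes chosen here for their increase, and were 217 at 72 h and 236 at 96 h without them. Among 7826 genes with another symbol, 291 (3.72%) were called higher at 72 h and 267 (3.41%) at 96 h, and 122 at both times. Calls in the other direction took 10.2% of the CG-numbered genes at 72 h and 8.29% at 96 h, and 8.17% and 6.49% of the genes with another symbol. Of 88 tested gene models without a FlyBase identifier, 5 (5.68%) were called higher at 72 h and 9 (10.2%) at 96 h. In the other direction, 12 (13.6%) were called at 72 h and 5 (5.68%) at 96 h. These shares are a description, and the difference between the classes was not tested.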
